A study of Homo sapiens with 43 samples.

Results

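The genes described here are 38 of the 58347 annotated genes in the RNA-seq table: a named list of genes for homologous recombination, the Fanconi anemia pathway, the ATR and ATM checkpoint and the removal of R-loops, taken as listed and matched by symbol. All 38 were found and all 38 passed the filter on low counts. They were measured in HEL, a human erythroleukemia line, in 3 stable lines carrying U2AF1 with S34F, U2AF1 with Q157R or wild-type U2AF1 (WT), the small subunit of the U2AF splicing factor, which reads the end of introns. In the induced groups the transgene had been switched on with doxycycline at 1 µg/ml for 48 hours, and the groups without doxycycline are called uninduced. The 10 RNA-seq libraries were 2 of S34F induced, 2 of Q157R induced, 2 of WT induced, 1 of S34F uninduced, 1 of Q157R uninduced and 2 of WT uninduced cells. The labels name no change to the cells' own U2AF1 gene and do not say whether a line was a clone or a pool, or whether the biological replicates were separate cultures, so p-values measure the spread between these libraries.

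Homologous recombination repairs a broken chromosome by copying the sister chromatid: nucleases trim the break ends, BRCA1 and BRCA2 with their partners prepare the trimmed DNA for pairing with the sister, and the XRCC and RAD54 proteins help in the steps that follow. In the Fanconi pathway a core ubiquitin ligase modifies the FANCI and FANCD2 pair at DNA crosslinks, and inherited loss of the pathway causes bone marrow failure. R-loops are RNA and DNA hybrids left by transcription; RNase H enzymes degrade their RNA strand, and stalled forks at such sites signal through ATR and CHK1. Many genes of these pathways are expressed mainly in dividing cells, for which E2F factors are a known transcriptional control.

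The promoters of 4 of the 7 genes that hold the letters of a known E2F motif, in capitals, are shown as examples. Each of the 4 is described below, as are FANCA, FANCC and TOPBP1, whose promoters are not shown. RefSeq promoters on GRCh38.p14, from 250 bases before to 50 bases after the start, were available for 35 of the 38 genes. A script searched both strands for TTTCCCGC, TTTGGCGC, TTTCGCGC and TTTGCCGC, which do not overlap the other motifs searched. EXO1 and FANCD2 are described below for S34F, and CLSPN and XRCC2 for the replicate number.
EXO1 promoter (chr1:241847954-241848253, plus strand): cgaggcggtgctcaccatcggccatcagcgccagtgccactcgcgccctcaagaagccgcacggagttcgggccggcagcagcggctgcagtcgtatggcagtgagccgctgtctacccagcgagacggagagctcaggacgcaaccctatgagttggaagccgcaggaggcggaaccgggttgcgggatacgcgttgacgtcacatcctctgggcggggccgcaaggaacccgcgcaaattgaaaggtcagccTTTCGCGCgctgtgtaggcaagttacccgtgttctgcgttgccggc
FANCD2 promoter (chr3:10026187-10026486, plus strand): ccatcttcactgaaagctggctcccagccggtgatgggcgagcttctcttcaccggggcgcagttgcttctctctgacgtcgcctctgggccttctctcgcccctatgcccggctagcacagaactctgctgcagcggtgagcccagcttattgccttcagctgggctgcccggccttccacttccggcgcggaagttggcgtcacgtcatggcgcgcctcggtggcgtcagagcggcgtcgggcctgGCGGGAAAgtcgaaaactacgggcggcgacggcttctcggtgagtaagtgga
CLSPN promoter (chr1:35769929-35770228, minus strand): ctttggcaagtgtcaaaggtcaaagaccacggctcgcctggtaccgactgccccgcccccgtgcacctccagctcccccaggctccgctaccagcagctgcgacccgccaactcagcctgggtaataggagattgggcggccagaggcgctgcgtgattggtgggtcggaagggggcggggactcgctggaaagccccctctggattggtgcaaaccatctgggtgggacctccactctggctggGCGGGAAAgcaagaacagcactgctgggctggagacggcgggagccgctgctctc
XRCC2 promoter (chr7:152676092-152676391, minus strand): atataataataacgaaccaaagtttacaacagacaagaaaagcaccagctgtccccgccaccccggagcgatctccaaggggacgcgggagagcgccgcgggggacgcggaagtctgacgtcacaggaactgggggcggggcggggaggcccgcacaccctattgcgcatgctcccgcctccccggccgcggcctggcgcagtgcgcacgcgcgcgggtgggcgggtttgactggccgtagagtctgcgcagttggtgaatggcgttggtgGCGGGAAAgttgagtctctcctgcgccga

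The E2F letters stood in 7 of the 35 promoters (20%), those of CLSPN, EXO1, FANCA, FANCC, FANCD2, TOPBP1 and XRCC2, against 3.33% of all 27303 promoters of the same length and 4.44% of the 15841 of protein-coding genes. The letters CCAAT stood in 15 of the 35 promoters (42.9%), against 35.7% of all promoters, and the cell-cycle letters TTTGAA or TTCGAA in 3 (8.57%), against 16.6%. Of the 14 genes called in the paired S34F to WT fit below, 12 had a promoter in the table and 2 of them, EXO1 and FANCD2, hold the E2F letters. These are matches of letters in a window and were not tested as binding sites.

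The libraries held between 22392303 and 40370092 counts on named genes. Of all reads, 33.7% and 33.5% in the S34F induced libraries were counted to no annotated feature. The share was 22.7% and 22.7% in the WT induced libraries, 23.2% and 27.0% in Q157R induced and 19.0% to 20.6% in the uninduced libraries. This share moves with every comparison of S34F induced cells below, and its part in them was not tested. Whether these reads lay in introns or outside genes cannot be told from the counts. The HEL markers fixed for the check were present in all libraries, with a summed level of 3358 to 4758 CPM, the counts scaled to library size, over 12 genes, while lymphoid markers summed to at most 4.49 CPM and of the stromal and epithelial markers only PECAM1, which megakaryocytic cells also express, was above 2 CPM. U2AF1 itself had 11.0 to 22.1 CPM and did not separate induced from uninduced libraries; it has a near-identical copy on the reference genome, so this row does not check the induction.

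Levels per length, in CPM per kilobase of exon averaged over the 10 libraries, ran over a wide range. FANCI was the highest at 34.3, followed by TOPBP1 at 26.2 and RAD54L at 24.9, and RAD50 was the lowest at 0.558. The RAD50 row is uncertain, because 79.7% of its exon bases are shared on the same strand with the read-through gene AC116366.3, and counting that drops ambiguous reads would lose them. Shared exons also touch RAD54B (59.1% with FSBP) and RNASEH2A (30.8% with THSD8), and the other 35 genes share less than 30% on their own strand. Between the lowest and highest of the 10 libraries, CLSPN varied 5.40-fold and FANCL 1.32-fold, the widest and narrowest ranges of the 38.

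**Figure D1:**
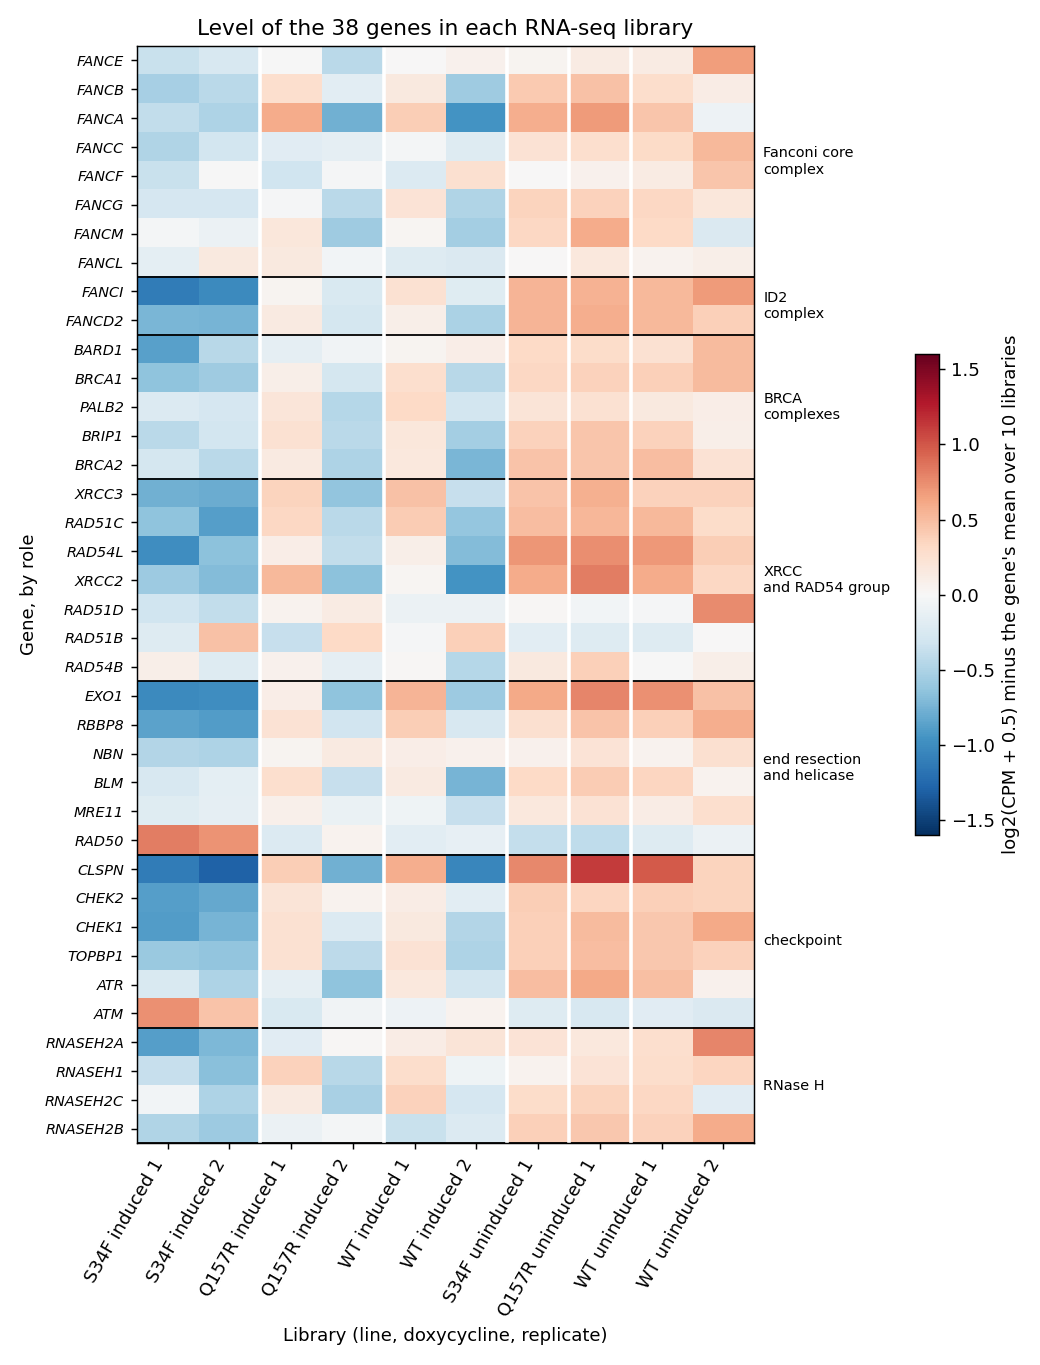
Levels of the 38 genes in the 10 RNA-seq libraries, as log2(CPM + 0.5) minus each gene's mean over the libraries, with genes in rows by role and libraries in columns. The 2 S34F induced libraries are the lowest of the 10 for 17 of the 38 genes, the uninduced columns are mostly red, the second Q157R and WT induced libraries lie below the first, and RAD50 and ATM run the other way. The share of all genes with the S34F induced libraries lowest was not counted.

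In S34F induced against WT induced cells, FANCI was the only one of the 38 genes to pass the test, 2.16-fold lower. Of the 38 genes, 31 had a lower fitted level in S34F, and the median log2 fold change of the 38 was -0.33, against 0.00 over all 21300 genes tested and -0.16 over the 13602 protein-coding ones. Of the protein-coding genes 61.3% had a lower fitted level in S34F. The test was edgeR's quasi-likelihood test, with p-values adjusted by Benjamini and Hochberg's method over the whole table and called under 0.05; it called 1.67% of all genes, 0.991% as lower. Like-numbered libraries deviated together, so the replicate number was also fitted as a block. The block assumes the same replicate effect in every group, and over the 38 genes that effect differed between groups, as given below. In that paired fit 12 of the 38 genes were lower (31.6%) and 2 were higher, FANCI again among the lower, against 12.9% lower and 9.56% higher of all genes and 19.3% lower of protein-coding genes. DESeq2 called 7 of the 38, against 9.69% of the genes to which it gave an adjusted p. In bulk RNA, fewer cells of a type and less RNA per cell cannot be told apart.

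FANCI, on chromosome 15 from 89243949 to 89317261 on the plus strand (GRCh38), is the partner of FANCD2 in the ID2 complex that clamps onto DNA at crosslinks. Its level was 113 and 121 CPM in the S34F induced libraries, against 290.4 and 215 CPM in the WT induced libraries. Both S34F values lay below all 8 other libraries, the next being 207 CPM in a Q157R induced library. The log2 fold change was -1.11 ± 0.20 (SE, edgeR adjusted p = 0.0448), and -1.10 ± 0.16 with the block (adjusted p = 0.00152). Every leave-one-out fit lost the call, with adjusted p from 0.124 without the second WT library and 0.142 without the first to 0.213 and 0.359 without the second and the first S34F library, while the log2 fold change stayed between -1.33 and -0.87. Fitting S34F induced and WT induced libraries alone also lost it (adjusted p = 0.0788).

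FANCD2, the ubiquitinated partner, followed with 59.8 and 59.1 CPM in S34F induced cells, against 106 and 69.8 CPM in WT induced cells. The S34F values lay below both WT values, of which the second library was much closer. The log2 fold change of -0.56 ± 0.23 did not pass the test (edgeR adjusted p = 0.197) and passed with the block (adjusted p = 0.0328).

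The Fanconi core complex, the ligase of which FANCL is the catalytic subunit and FANCM the DNA translocase, had no gene called. None of its 8 genes passed in either fit, where 0.991% of all genes were called as lower without the block and 12.9% with it. With 8 genes, a count of 0 does not set the complex apart from all genes. None had an unadjusted p under 0.05, and the median log2 fold change of the complex was -0.25. FANCE, which contacts FANCD2, had 20.9 and 22.4 CPM in S34F induced cells, against 27.0 and 28.4 CPM in WT induced cells (log2 fold change -0.35 ± 0.24, edgeR adjusted p = 0.399). FANCC, its neighbour in the complex, had 12.2 and 14.0 CPM in S34F, against 16.9 and 14.9 CPM in WT (-0.28 ± 0.19, adjusted p = 0.411). For both genes the S34F libraries lay below the WT libraries by less than the test could separate. The other members had log2 fold changes of -0.34 for FANCB, -0.31 for FANCA, -0.22 for FANCF, -0.18 for FANCG, 0.17 for FANCM and 0.23 for FANCL.

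Among the BRCA proteins, all 5 genes had a fitted level below WT, with a median log2 fold change of -0.30, and BARD1 alone passed, with the block. BARD1, the RING partner that makes BRCA1 an active ubiquitin ligase, had 33.7 and 45.3 CPM in S34F induced cells, against 63.6 and 66.3 CPM in WT induced cells. The groups did not overlap, and the log2 fold change was -0.72 ± 0.19 (edgeR adjusted p = 0.0875, and 0.00615 with the block). BRCA1 had 71.6 and 75.7 CPM in S34F, against 136 and 82.7 CPM in WT, so that the difference rested mainly on the first WT library. Its log2 fold change was -0.57 ± 0.25 (edgeR adjusted p = 0.216, and 0.0681 with the block). PALB2, which joins BRCA1 to BRCA2, the helicase BRIP1 and BRCA2, known from hereditary breast cancer, had -0.30, -0.23 and -0.15.

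Of the 7 genes of the XRCC and RAD54 group, XRCC3 and RAD51C were lower in the paired fit and no gene was in the fit without the block. The XRCC3 and RAD51C proteins form a complex that acts late in recombination. XRCC3 had 18.5 and 18.1 CPM in S34F induced cells, against 44.2 and 24.5 CPM in WT induced cells (log2 fold change -0.91 ± 0.36, edgeR adjusted p = 0.186, and 0.0389 with the block). RAD51C had 30.5 and 25.7 CPM in S34F, against 63.8 and 31.0 CPM in WT (-0.76 ± 0.37, adjusted p = 0.254, and 0.0331 with the block). In both genes the 2 WT libraries differed from each other more than the second WT library differed from S34F. Of the XRCC3 exon bases 76.7% lie opposite exons of KLC1. KLC1 had 44.7 and 33.3 CPM in S34F induced cells, against 25.3 and 24.5 CPM in WT induced cells. The strand setting of the counting is not given, and the part of this overlap in the XRCC3 difference was not tested. The DNA translocase RAD54L had -0.57, XRCC2, RAD51D and RAD51B -0.27, -0.27 and -0.02, and RAD54B 0.16, none of them called in either fit.

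The end-resection genes split. In the paired fit the nuclease EXO1, the resection factor RBBP8 (CtIP) and NBN fell and the RAD50 row rose, while the nuclease MRE11 and the helicase BLM had log2 fold changes of 0.05 and 0.03. NBN, the subunit that brings MRE11 and RAD50 to breaks and recruits ATM, had 106 and 105 CPM in S34F induced cells, against 159 and 155 CPM in WT induced cells. Its replicates lay within 4 CPM of each other in each group and the groups did not overlap, and its log2 fold change was -0.57 ± 0.15 (edgeR adjusted p = 0.0832, and 0.0104 with the block). RAD50 had 9.58 and 8.87 CPM in S34F, against 4.59 and 4.71 CPM in WT (0.99 ± 0.25, adjusted p = 0.0765, and 0.0104 with the block). The read-through gene that overlaps RAD50 had at most 0.263 CPM in any library, highest in the S34F induced ones, so how many RAD50 reads were set aside as ambiguous cannot be told from the table. EXO1 had 27.4 and 27.7 CPM in S34F, against 81.6 and 37.1 CPM in WT (-1.11 ± 0.38, adjusted p = 0.136, and 0.0182 with the block). RBBP8 had 27.8 and 27.2 CPM in S34F, against 67.1 and 42.3 CPM in WT (-0.99 ± 0.27, adjusted p = 0.0868, and 0.00809 with the block). Neither gene's groups overlapped, and in both the first WT library was the farther from S34F.

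Among the checkpoint genes CHEK2 came nearest to the threshold after FANCI. CHEK2, the kinase downstream of ATM, is on chromosome 22 from 28687743 to 28742422 on the minus strand. It had 16.1 and 16.9 CPM in S34F induced cells, against 32.7 and 26.7 CPM in WT induced cells. As with FANCI, both S34F values lay below all the other libraries. The log2 fold change was -0.85 ± 0.18 (edgeR adjusted p = 0.0573), and it passed with the block (adjusted p = 0.00415) and in DESeq2 (adjusted p = 0.00876). ATM, the kinase that answers to double-strand breaks, went the other way, with 288 and 236 CPM in S34F, against 163 and 179 CPM in WT. Both S34F values lay above every other library, and the log2 fold change was 0.61 ± 0.17 (adjusted p = 0.0875, and 0.0124 with the block). CHEK1, the kinase that carries the ATR signal, had 36.3 and 40.3 CPM in S34F, against 75.6 and 49.0 CPM in WT (-0.70 ± 0.25), and passed with the block (adjusted p = 0.0348). The mediator CLSPN had the lowest log2 fold change of the 38, -1.21 ± 0.54, and did not pass in either fit (adjusted p = 0.228, and 0.0771 with the block), and the ATR activator TOPBP1 and ATR itself had -0.53 and -0.32.

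The 4 RNase H genes, which degrade the RNA of R-loops or remove ribonucleotides from DNA, all had a fitted level below WT. RNASEH2A, the catalytic subunit of RNase H2, had 21.9 and 24.6 CPM in S34F induced cells, against 44.2 and 47.1 CPM in WT induced cells (log2 fold change -0.97 ± 0.21, edgeR adjusted p = 0.0610, and 0.0021 with the block). The S34F libraries were the lowest of the 10, and THSD8, which shares exons with this gene, had 0 CPM in all of them. RNASEH1, the separate enzyme that acts on R-loops, had 28.7 and 23.3 CPM in S34F, against 45.5 and 35.5 CPM in WT (-0.64 ± 0.28, adjusted p = 0.218, and 0.0350 with the block). The accessory subunits RNASEH2C and RNASEH2B had -0.34 and -0.25 and did not pass.

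**Figure D2:**
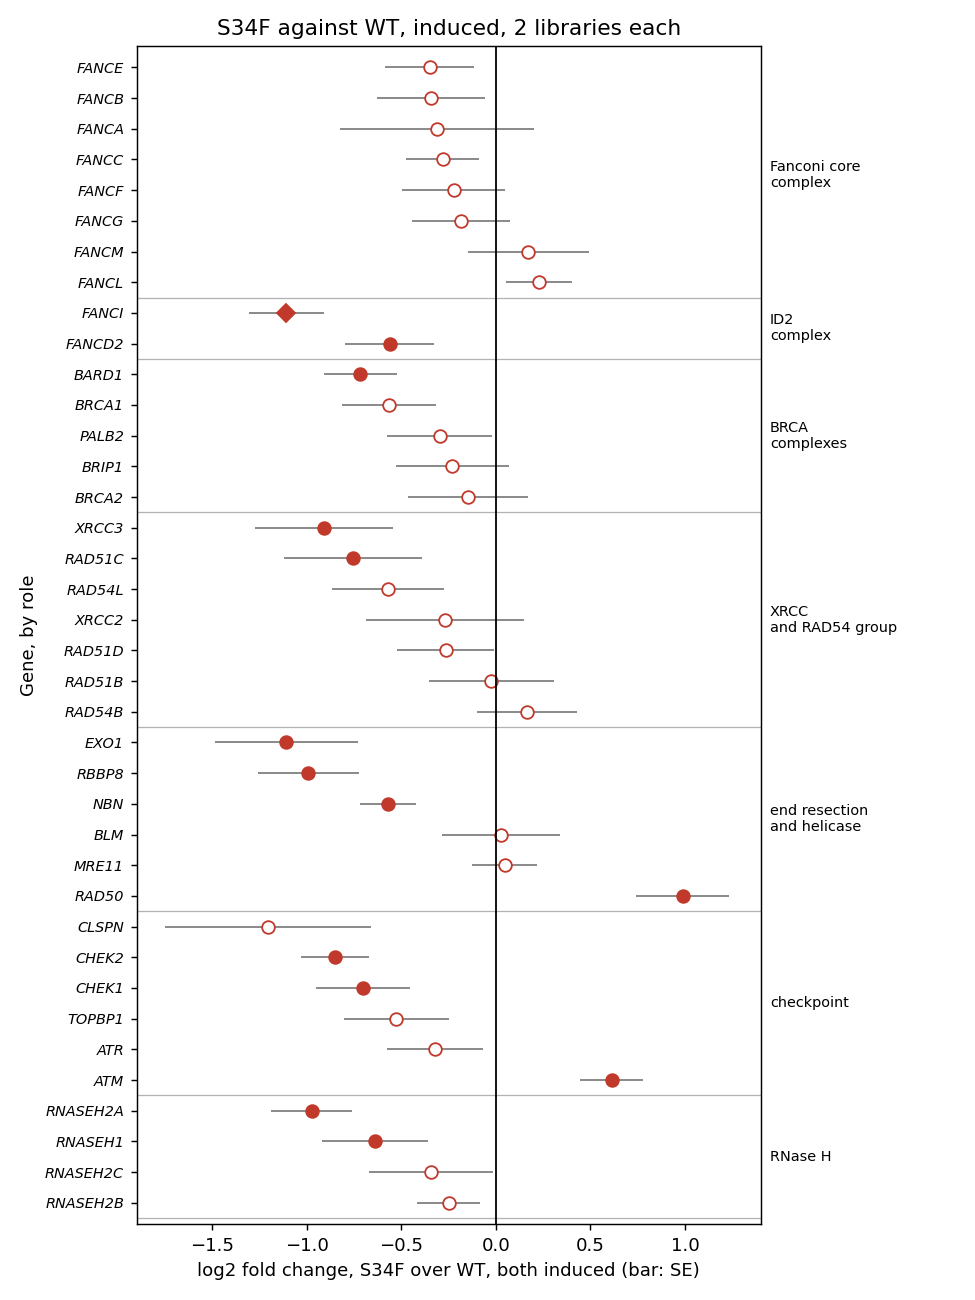
log2 fold change of S34F induced over WT induced cells for the 38 genes by role, with bars of 1 SE from edgeR and 2 libraries a group. The diamond is FANCI, the gene called without the block, and filled symbols mark the 14 genes called in the paired fit, of which ATM and RAD50 lie above 0 and 12 below.

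Taken within each replicate number, the S34F to WT difference was larger in the first pair of libraries. With replicate 1, 34 of 38 genes had an S34F level below WT and the median log2 ratio was -0.59; with replicate 2 it was 22 of 38 and -0.17. FANCI had log2 ratios of -1.36 and -0.82, RNASEH2A of -0.998 and -0.92 and NBN of -0.58 and -0.56, so each of these genes was lower in both pairs. CLSPN had -1.70 and -0.25, and FANCA had -0.78 and 0.46, so their difference rested on the first pair. In all, 22 genes were below WT in both numbers and 4 were above in both. The same counts were not taken over all genes.

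**Figure D3:**
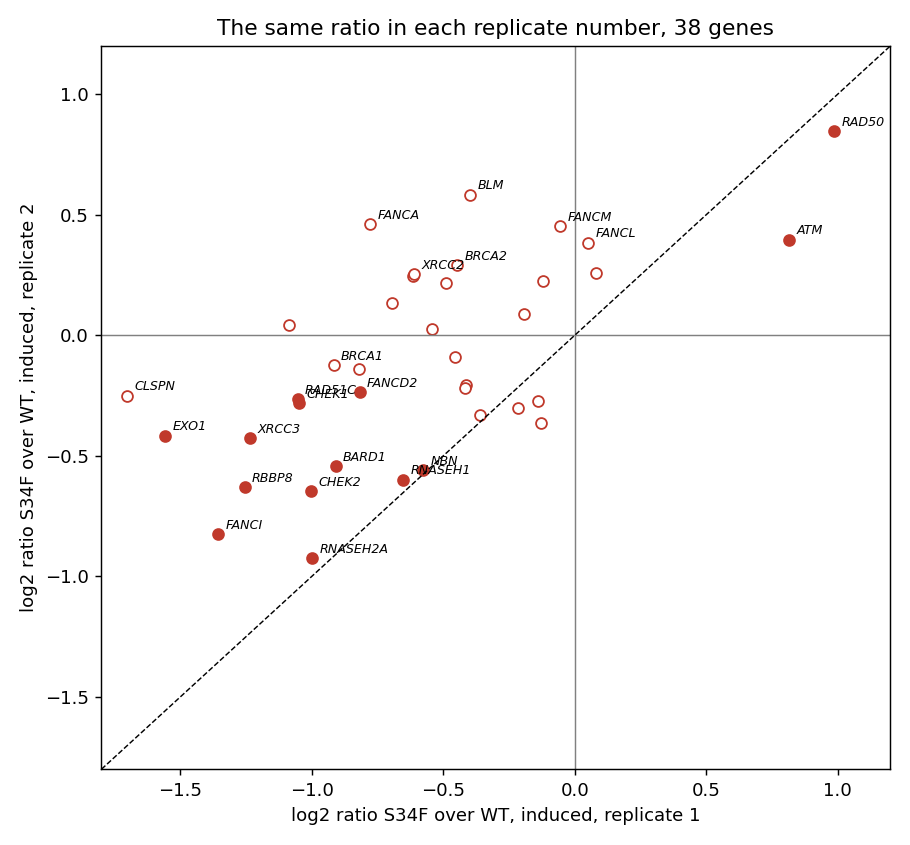
log2 ratio of S34F over WT in induced cells for the 38 genes, replicate 1 on the horizontal and replicate 2 on the vertical axis, with the dashed line marking equal ratios and filled circles the 14 genes called with the block. RNASEH2A, NBN and RNASEH1 lie near the line, and FANCA, BLM, BRCA2 and XRCC2 are below 0 in replicate 1 and above 0 in replicate 2.

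S34F induced cells were set against Q157R induced cells in the same way. Their median log2 fold change was -0.49, with 33 of 38 genes lower in S34F. In either direction, 12 of the 38 had an unadjusted p under 0.05, ATM and RAD50 among them as higher. Over protein-coding genes the median was -0.12, and 59.7% were lower in S34F. No gene was called without the block (0.559% of all genes were), 4 were in DESeq2 (7.31% of all genes), and 10 were lower and 2 higher with the block, against 11.5% and 8.49% of all genes. The share lower with the block was 26.3% of the 38 and 17% of protein-coding genes. CHEK2 had 16.1 and 16.9 CPM in S34F, against 34.7 and 31.2 CPM in Q157R (log2 fold change -1.001 ± 0.18, edgeR adjusted p = 0.0586, and 0.00237 with the block). FANCI had 113 and 121 CPM in S34F, against 254 and 207 CPM in Q157R (-0.98 ± 0.20, adjusted p = 0.0609, and 0.00295 with the block). Neither gene's groups overlapped. The S34F libraries are shared with the comparison to WT, so the comparisons are not independent. Called with the block were ATM and RAD50 as higher and BARD1, CHEK1, CHEK2, FANCD2, FANCI, NBN, RAD51C, RBBP8, RNASEH2A and RNASEH2B as lower.

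Q157R induced cells did not separate from WT induced cells in these genes. Of the 38, 20 had a higher and 18 a lower fitted level in Q157R, with a median log2 fold change of 0.01 and a range from -0.34 to 0.43. None was called by edgeR or by DESeq2, and none had an unadjusted p under 0.05 in the fit without the block. Of all genes, 0% were called without the block, 0.0188% with it and 0.00776% by DESeq2. The smallest p was that of FANCL, with 57.9 and 50.0 CPM in Q157R, against 45.0 and 44.1 CPM in WT (log2 fold change 0.28 ± 0.18, edgeR adjusted p = 1.00). RNASEH2B had 39.4 and 41.1 CPM in Q157R, against 32.8 and 36.2 CPM in WT (0.22 ± 0.17, adjusted p = 1.00). A p that misses the threshold with 2 libraries a group does not show that the levels were equal.

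**Figure D4:**
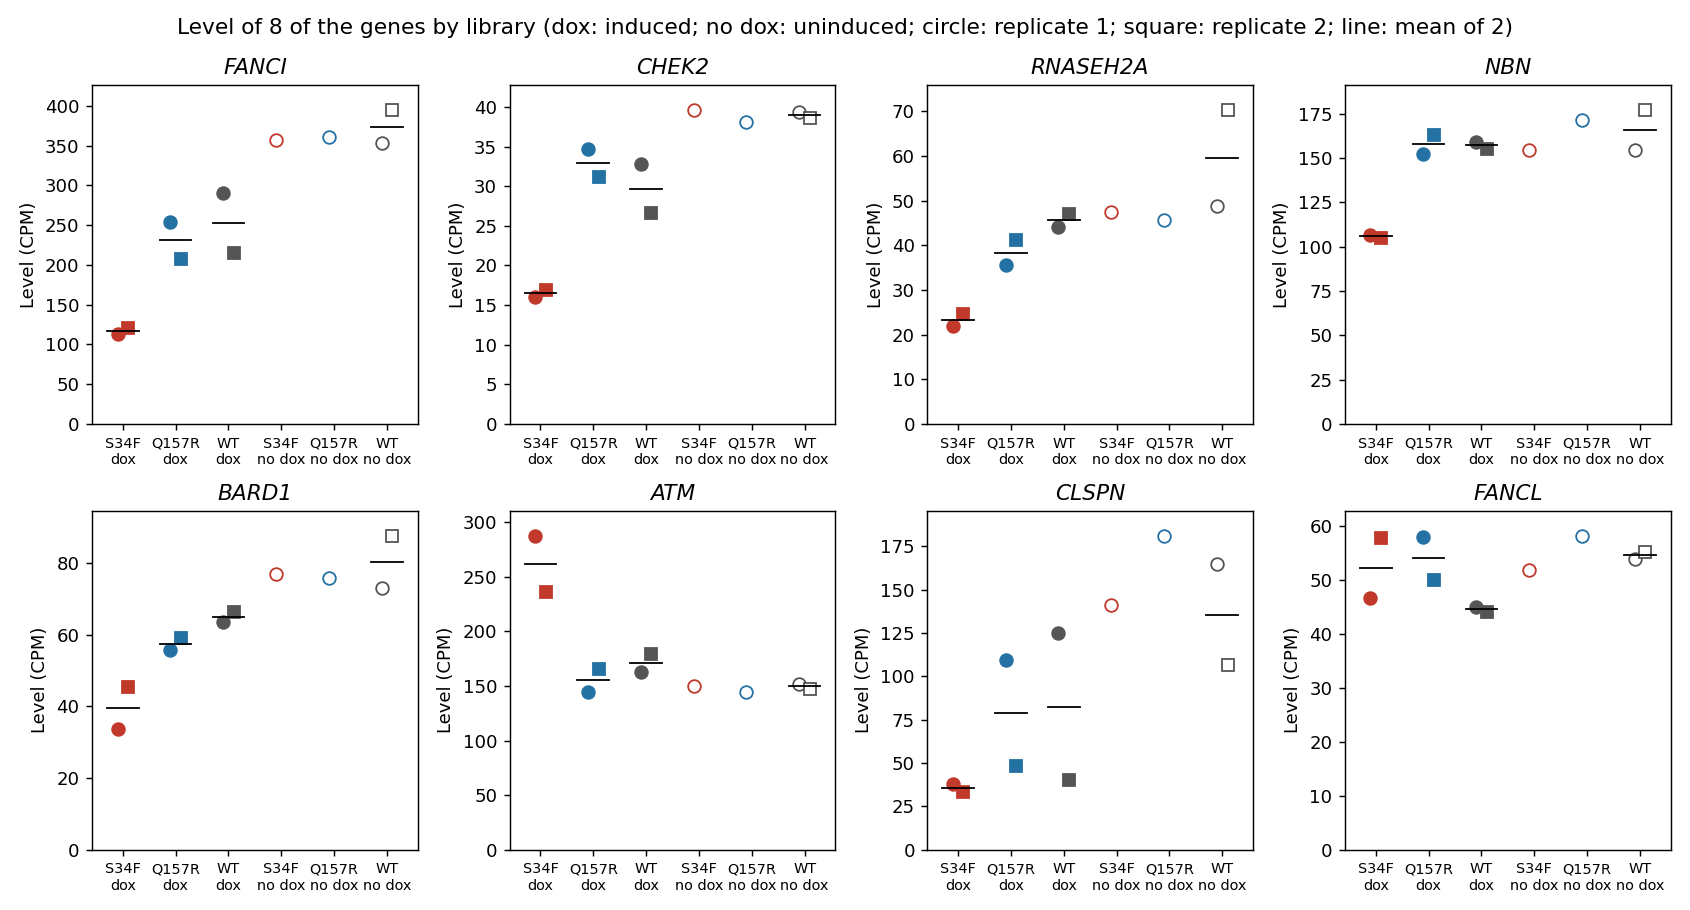
Levels in CPM of 8 of the genes in each library, by line and doxycycline, with circles for replicate 1, squares for replicate 2, open symbols for uninduced cells and lines for means of 2 libraries. FANCI, CHEK2, RNASEH2A, NBN and BARD1 are lowest in the S34F induced libraries and ATM is highest there, whereas CLSPN is lower in replicate 2 than in replicate 1 of the Q157R and WT induced groups and FANCL stays between 44.1 and 58.1 CPM.

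Before induction none of the 38 genes was called between a mutant line and WT. S34F uninduced against WT uninduced cells had a median log2 fold change of 0.00 over the 38, with none called by edgeR with or without the block or by DESeq2 and none at an unadjusted p under 0.05 (0% of all genes were called). That median is from the fit without the block, where 47.4% of the 38 had a lower fitted level in S34F. With the block 81.6% of them were lower, against 54.7% of protein-coding genes. FANCI had 358 CPM in the S34F line, against 353 and 395 CPM in the WT line, and CHEK2 had 39.6 CPM, against 39.3 and 38.7 CPM. The genes with the smallest p were FANCE, 27.8 CPM in S34F against 29.6 and 43.2 CPM in WT (-0.39 ± 0.29), and RAD51D, 23.9 CPM against 23.2 and 40.4 CPM (-0.41 ± 0.32), where the second WT library stood apart. Without that library the RAD51D value was 0.042. Q157R uninduced cells had a median of 0.09 against WT, with none called by edgeR or DESeq2 and none at an unadjusted p under 0.05 (0% of all genes called). Of the 38, 42.1% were lower in Q157R uninduced cells without the block and 68.4% with it, against 56.6% of protein-coding genes with it. RAD51D had 22.8 CPM in Q157R uninduced cells, and RNASEH2A 45.6 CPM, against 48.9 and 70.3 CPM in WT uninduced cells (-0.48 ± 0.32 for RAD51D and -0.39 ± 0.26 for RNASEH2A). Each mutant line had 1 uninduced library, of replicate 1, and borrowed the spread of the other groups.

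In the S34F line FANCI and CHEK2 were lower with doxycycline. FANCI had 113 and 121 CPM in S34F induced cells, against 358 CPM in S34F uninduced cells (log2 fold change -1.61 ± 0.23, 3.06-fold, edgeR adjusted p = 0.0340). CHEK2 had 16.1 and 16.9 CPM, against 39.6 CPM in S34F uninduced cells (-1.27 ± 0.21, 2.40-fold, adjusted p = 0.0381). These were 2 of 38 genes, where 1.96% of all genes were called and 1.26% as lower, and both calls were lost without either S34F induced library (adjusted p from 0.167 to 0.259). With the block 17 genes were lower (44.7%) and ATM and RAD50 higher, against 11% and 8.23% of all genes, and DESeq2 called 14, against 11% of all genes. Of protein-coding genes 16.4% were lower with the block. The median log2 fold change over the 38 was -0.84, and -0.62 with the block, against -0.13 and -0.15 over protein-coding genes. By role the paired fit called as lower both ID2 genes, 5 checkpoint genes, 3 resection genes and 3 genes of the XRCC and RAD54 group. It also called as lower 2 BRCA genes, 2 RNase H genes and 0 of the 8 core complex genes. With 11% of all genes lower, 0 of 8 does not set the core complex apart from all genes.

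In the WT and Q157R lines most of the genes also had a lower fitted level on doxycycline, and none passed the test. In the WT line 35 of 38 genes had a lower fitted level in induced than in uninduced cells, with a median of -0.39. In either direction, 7 of the 38 had an unadjusted p under 0.05. None was called by edgeR with or without the block or by DESeq2 (0% of all genes, 0.418% with the block and 0.102% by DESeq2). Of protein-coding genes 52.7% had a lower fitted level in the induced WT line. RNASEH2B had 32.8 and 36.2 CPM in WT induced cells, against 54.6 and 63.9 CPM in WT uninduced cells (-0.78 ± 0.17, edgeR adjusted p = 0.693, and 0.0501 with the block). FANCI had 290.4 and 215 CPM in WT induced cells, against 353 and 395 CPM in WT uninduced cells (-0.57 ± 0.20, adjusted p = 0.770). Neither gene's groups overlapped. The WT line was also uneven between numbers, with a median log2 ratio of induced to uninduced of -0.18 in replicate 1 and -0.68 in replicate 2. In the Q157R line 34 of 38 were lower, with a median of -0.46. In either direction, 4 of the 38 had an unadjusted p under 0.05. None was called in any of the 3 fits (0% of all genes, 0.263% with the block and 0.374% by DESeq2). Without the filter on low counts ATR, CLSPN and EXO1 were called as lower, and the share of all genes called in that fit was not counted. Of protein-coding genes 51.5% had a lower fitted level in the induced Q157R line. ATR, the kinase of stalled forks, had 76.6 and 53.9 CPM in Q157R induced cells, against 129 CPM in Q157R uninduced cells (-0.98 ± 0.30, adjusted p = 0.552, and 0.0786 with the block). FANCI had 254 and 207 CPM, against 361 CPM in Q157R uninduced cells (-0.64 ± 0.23, adjusted p = 0.552).

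Whether doxycycline acted differently in the mutant lines was tested as an interaction. For S34F minus WT no gene was called by edgeR with or without the block or by DESeq2, and 4 of 38 had an unadjusted p under 0.05 (0% of all genes were called, 0.704% with the block and 0.123% by DESeq2). FANCI had an extra log2 change of -1.05 ± 0.31 in the S34F line (edgeR adjusted p = 0.589, and 0.105 with the block) and CHEK2 of -0.87 ± 0.28 (adjusted p = 0.591, and 0.148 with the block). For Q157R minus WT no gene was called in any of the 3 fits and none had an unadjusted p under 0.05 (0% of all genes without the block or by DESeq2 and 0.00469% with the block), with ATR at -0.65 ± 0.40 and RAD51D at 0.67 ± 0.41. Without the filter on low counts 1 gene, CLSPN, was called for S34F minus WT (-1.34 ± 0.37, edgeR adjusted p = 0.0391). The share of all genes called in that fit was not counted.

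**Figure D5:**
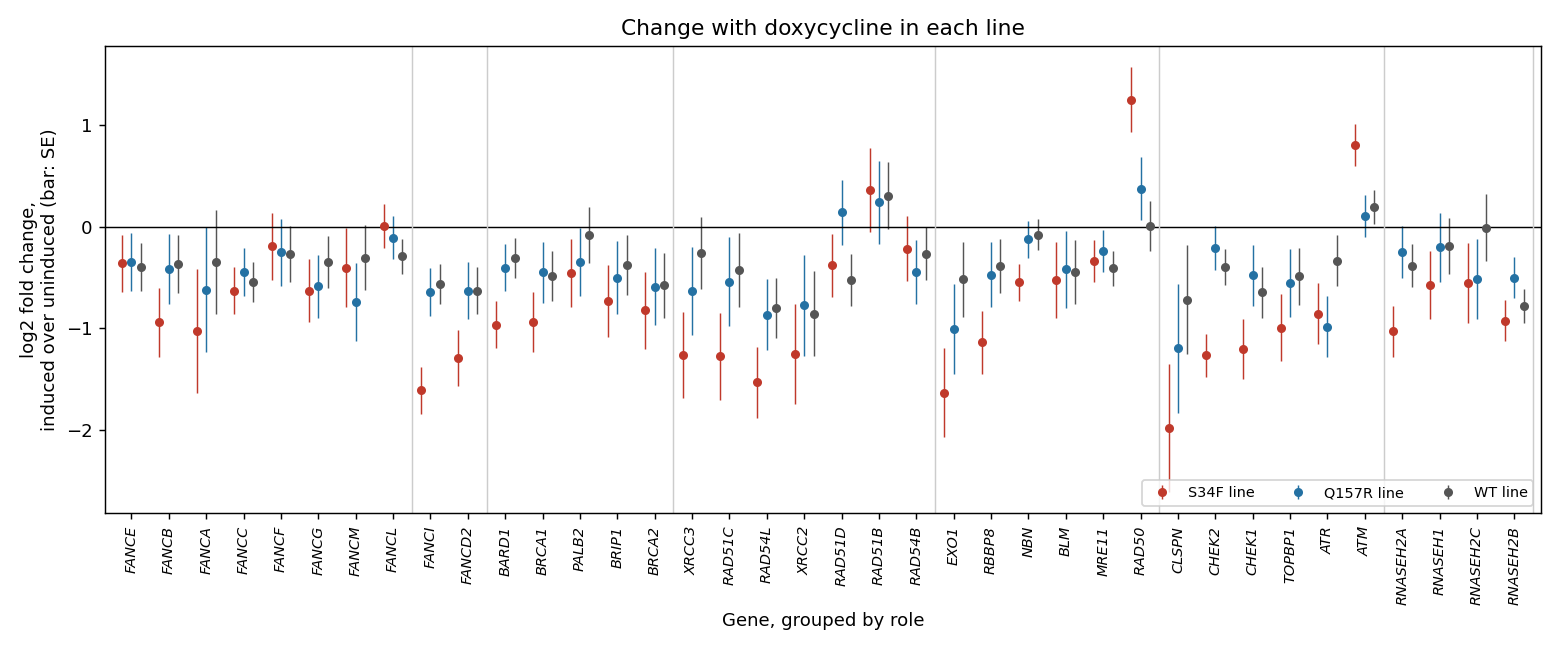
log2 fold change of induced over uninduced cells for the 38 genes in the S34F, Q157R and WT lines, with bars of 1 SE, from 2 induced libraries a line and 1, 1 and 2 uninduced libraries. Most points of all 3 lines lie below 0, the S34F points of FANCI and CHEK2 at -1.61 and -1.27 lie below those of the other lines for the same gene by more than the bars, CLSPN has the lowest S34F point at -1.98, and the S34F points of RAD50 and ATM lie above 0.

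The replicate number was itself tested, as replicate 2 against replicate 1 over all groups. In the paired fit the coefficient of replicate 2 against replicate 1 called 8 genes as lower and RAD51B as higher, where 7.97% and 9.1% of all genes were called. The share called as lower was 21.1% of the 38 and 10.7% of protein-coding genes. RNASEH2C had 22.1 CPM in S34F induced, 21.6 in Q157R induced, 25.8 in WT induced and 27.5 in WT uninduced cells in replicate 2, against 30.3, 34.6, 40.6 and 39.4 CPM in replicate 1 (log2 fold change -0.58 ± 0.11, edgeR adjusted p = 0.00529). ATR had 59.9, 53.9, 69.1 and 88.7 CPM in replicate 2 of the same groups, against 71.6, 76.6, 95.5 and 119 CPM in replicate 1 (-0.41 ± 0.10, adjusted p = 0.0147). Replicate 2 was the lower in all 4 groups for both genes. The lowest value, chosen after the values were seen, was that of CLSPN, with -0.91 ± 0.23 (adjusted p = 0.0438) and 33.5, 48.5, 40.0 and 107 CPM in replicate 2, against 37.96, 109, 125 and 165 CPM in replicate 1. CLSPN was far lower in replicate 2 of the Q157R and WT induced groups and little lower in S34F. FANCA had 44.4, 36.6, 32.1 and 59.6 CPM in replicate 2 of the same groups, against 47.9, 95.5, 82.4 and 85.9 CPM in replicate 1 (-0.85 ± 0.23, adjusted p = 0.0462). XRCC2 had 21.9, 22.7, 18.3 and 45.1 CPM in replicate 2, against 23.8, 51.5, 36.7 and 54.6 CPM in replicate 1 (-0.64 ± 0.18, adjusted p = 0.0350). Both were lower in replicate 2 of all 4 groups, by little in S34F. FANCM had 24.1, 17.2, 17.5 and 21.8 CPM in replicate 2, against 25.3, 29.3, 26.3 and 32.3 CPM in replicate 1 (-0.50 ± 0.13). BRCA2 had 57.8, 55.6, 47.1 and 91.8 CPM in replicate 2, against 64.6, 86.5, 88.2 and 110.2 CPM in replicate 1 (-0.49 ± 0.13). These, too, were lower in replicate 2 of every group. RAD51C had 25.7, 35.3, 31.0 and 58.8 CPM in replicate 2, against 30.5, 60.6, 63.8 and 68.7 CPM in replicate 1 (-0.57 ± 0.14). RAD51B, the only gene called as higher, had 16.8, 15.1, 15.8 and 12.0 CPM in replicate 2, against 10.3, 9.19, 11.9 and 10.3 CPM in replicate 1 (0.51 ± 0.14, adjusted p = 0.0267).

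The replicate difference was not even across groups. Over the 38 genes the median log2 ratio of replicate 2 to replicate 1 was -0.02 in S34F induced cells, -0.43 in Q157R induced, -0.59 in WT induced and -0.01 in WT uninduced cells. The block assumes the same effect in every group, so calls made with it rest on an assumption that these medians depart from. CLSPN, FANCA and XRCC2, the 3 genes with the lowest values for the replicate number, had ratios of -0.18, -0.11 and -0.12 in S34F induced cells, against -1.63, -1.34 and -0.98 in WT induced cells. They were picked on the replicate difference itself, and the medians above show a contrast of the same direction over the 38 genes. For these 3 genes the S34F libraries were both low, and the 2 WT libraries lay far apart. The labels say only that the numbers are biological replicates.

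The other genes of the same pathways, from lists that were also chosen with earlier results known, mostly had the same sign in S34F against WT. Of 29 other recombination genes, 24 had a lower fitted level (median log2 fold change -0.30), 1 was called and 7 were with the block, all lower. RMI2, a partner of BLM, had 6.15 and 6.57 CPM in S34F induced cells, against 14.7 and 18.0 CPM in WT induced cells (-1.36 ± 0.26, edgeR adjusted p = 0.0470). Of 14 other Fanconi genes, 12 were lower (median -0.40), none was called and 5 were with the block. The most abundant of them were USP1, which deubiquitinates FANCD2, and the nuclease subunit ERCC1, at -0.51 ± 0.19 and -0.25 ± 0.23. Of 15 other ATR checkpoint genes, 12 were lower (median -0.25), none was called and 4 were with the block, with RNF168 at -0.11 and MDC1 at -0.07.

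Of 14 other R-loop genes, 11 were lower (median -0.20) and XRN2, the exonuclease that ends transcription, was called. It had 62.0 and 53.9 CPM in S34F induced cells, against 123 and 129 CPM in WT induced cells (log2 fold change -1.12 ± 0.16, edgeR adjusted p = 0.0432). With the block 2 of these were lower and 1 higher. The helicases DDX5 and DHX9, the most abundant of them, had -0.03 and 0.10. The pathways that compete with or complement recombination were not called without the block: 4 of 12 end-joining genes were lower and 2 higher with it (median -0.10 without the block), and 6 of 15 mismatch and base excision repair genes were lower (median -0.43). PRKDC, the catalytic kinase of end joining, had 809 and 862 CPM in S34F, against 1579 and 1305 CPM in WT (-0.79 ± 0.20, adjusted p = 0.0765, and 0.00533 with the block).

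Of 18 genes of cell division 15 had a lower fitted level in S34F than in WT, with a median log2 fold change of -0.83, 4 were called and 9 were with the block, all lower. TYMS, which makes thymidylate, had 68.8 and 72.8 CPM in S34F induced cells, against 143 and 142 CPM in WT induced cells (-1.01 ± 0.15, edgeR adjusted p = 0.0443). TOP2A, the topoisomerase of mitotic chromosomes, and MCM2 and MCM6 of the replicative helicase, had -1.001 ± 0.17, -1.17 ± 0.20 and -1.40 ± 0.24, each at adjusted p = 0.0443. The mitotic genes CCNB1, PLK1 and AURKA had 0.35, 0.22 and 0.02, CDK1, BUB1 and MKI67, a marker of cycling cells, had -0.18, -0.27 and -0.30, and none of these 6 passed with or without the block. The summed level of the 18 genes was 2149 and 2114 CPM in S34F induced, 3945 and 3178 in Q157R induced, 3846 and 2982 in WT induced and 4947 to 5529 CPM in uninduced cells. The sum over the 38 genes was likewise lowest in S34F induced and highest in uninduced cells, with 1787 and 1754 CPM in S34F induced, 2621 and 1973 in Q157R induced, 2711 and 1905 in WT induced and 3026 to 3258 CPM in uninduced cells. What part of the S34F difference in the repair genes goes with the share of dividing cells was not tested. Of the 12 HEL markers 10 were lower in S34F (median -0.51), and ITGB3, an integrin of megakaryocytes and platelets, was called, with 127 and 131 CPM in S34F against 253 and 245 CPM in WT (-0.95 ± 0.17, adjusted p = 0.0448).

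The crosslinking tables (eCLIP of U2AF1 and U2AF2 in WT cells, and freCLIP of U2AF1 in the 3 induced lines, which splits the complexes by size into light and heavy fractions) could not be read as U2AF binding to these genes. In eCLIP, RNA bound to a protein is fixed by ultraviolet light, pulled down and sequenced. Rows annotated as antisense genes held 27.6% of the eCLIP and 26.8% of the freCLIP gene counts, against 0.498% of the RNA-seq counts. The 100 rows with the most RNA-seq counts had a median of 322978 RNA-seq counts over 10 libraries and of 49 eCLIP counts over 7. Whether the deposited CLIP counts are of the strand opposite to the gene was not tested beyond these values.

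Counts on the genes themselves were also set against exons on the opposite strand. The 10 of the 38 genes with at least 5% of their exon bases opposite another gene's exons held 93.1% of the 16344 eCLIP counts on the list, with a median of 504 counts, against 12 counts in the 17 genes without such overlap. The most were on FANCA with 7158 counts, facing ZNF276 over 23.6% of its exon bases, and on XRCC3 with 3240, facing KLC1 over 76.7%. FANCI followed with 2503 (POLG, 5.9%), RNASEH2C with 948 (KAT5, 28.2%) and RAD54L with 628 (LRRC41, 25.1%). Others of the 10 held few, such as FANCF with 74 (11.3%), CLSPN with 50 (5.17%) and ATR with 27 (16.4%). Why the counts differed was not tested. Of the genes without such overlap BRCA2 had the most with 204, followed by NBN with 103 and CHEK1 with 78.

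In freCLIP 12 of the 38 rows had enough counts to test. None was called in the light or the heavy fraction of S34F against WT (0.337% and 0.132% of 6833 rows were), with 2 and 0 at an unadjusted p under 0.05, or in the heavy fraction of Q157R against WT (0%, and 0 at an unadjusted p under 0.05). In the light fraction of Q157R against WT, where 7.6% of rows were called, RAD54L was lower and FANCL higher. RAD54L had 20.6 and 7.39 CPM in Q157R, against 467, 428 and 13.7 CPM in WT (log2 fold change -4.64 ± 1.24, edgeR adjusted p = 0.0186). FANCL had 0 and 1153 CPM in Q157R, against 0, 28.5 and 54.7 CPM in WT (4.29 ± 1.13, adjusted p = 0.0171). The FANCL call rests on the Q157R library with 1153 CPM. RAD54L was low in both Q157R libraries, and also in the WT library with 13.7 CPM. Without the WT library labelled replicate 3, 1 row of the list was called.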

How the data were processed

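HEL cells with inducible S34F, Q157R or WT U2AF1 were measured by RNA-seq (10 libraries), eCLIP (7) and freCLIP (17), and 9 TimeLapse-seq samples were left aside. The deposited values are raw read counts per gene for each library. Per the submitters' processing notes the build was GRCh38.p10 and the tools included STAR 2.5.3a and STAR 2.7.0f, HTSeq and DESeq2, whose roles are not stated; the strand setting of the counting is not given in the sources used here. Lines naming no gene entered neither library sizes nor tests; they held 43.9% to 56.4% of reads.

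Gene IDs were matched to GENCODE 29 for symbols, exons and coordinates, counted from 1. edgeR 4.0.16 in R 4.3.3 fitted all RNA-seq libraries in 6 groups (TMM, filterByExpr with minimum count 10, robust quasi-likelihood F test, Benjamini-Hochberg over 21300 genes, threshold 0.05), and all freCLIP libraries likewise. CPM use TMM library sizes. Depth was 22392303 to 40370092 counts in a library, and a gene of the 38 had at least 103 counts in each. No 2 RNA-seq libraries were identical. The fit was tested on simulated data. Technical repeat libraries of eCLIP were summed into their replicate.

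Replicate numbers come from the labels and were used to pair the libraries. In all 6 pairs of the 4 groups with 2 libraries, the deviations of like-numbered libraries from the group means correlated over 0.1 (r from 0.27 to 0.81). With 2 libraries a group both numbers give the same r, and the 6 pairs come from 4 groups and are not independent. Because of these correlations the block is given where it changes a call. Alternatives were DESeq2 1.42.0, RLE scaling, no filter, only the compared groups and leaving out each library. Values in every compared library are given for genes called in a comparison without the block or for the replicate number, for the 2 with the smallest p per role in S34F against WT, and for the 2 with the smallest p in each other comparison. Genes named for a small p or a call tend to have groups that do not overlap. Such statements therefore describe the values and are no added support. The 38 genes and the other gene lists were chosen with earlier results of these data known. From the list of other recombination genes 1 gene is not reported here.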

Additional observations from a re-analysis of the deposited data

How the results depend on the processing

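The block for the paired replicate numbers raised the count of the 38 genes called from 1 to 14 for S34F against WT, from 0 to 12 for S34F against Q157R and from 2 to 19 for induced against uninduced S34F; it changed no other count by over 1.5 times. DESeq2 called 7, 4 and 14 in these comparisons, and leaving out the low-count filter gave 10, 9 and 19. Fits of only the compared groups called 0 for S34F against WT, 25 for induced against uninduced S34F and 0 for light freCLIP of Q157R against WT, where 2 were called. Without the filter, 3 were called for induced against uninduced Q157R, 1 for the S34F interaction and 15 instead of 9 for the replicate number. The shares of all genes called without the filter or in fits of only the compared groups were not counted. Those counts can therefore not be set against the whole table. Leaving out 1 library each gave 0 for S34F against WT and for induced against uninduced S34F, and 0 to 2 for light freCLIP of Q157R. A group left with 1 library was assumed to vary like the others. RLE scaling changed no call. Of 280 values of named genes under the alternatives, 244 kept direction and side of the threshold, 26 gained and 9 lost a call, and 1 turned: RAD51D in S34F against WT uninduced cells, from -0.76 without the first WT library to 0.042 without the second. The cause was not tested. The median of the 38 moved most for Q157R against WT, between -0.20 and 0.30 without single libraries. The depth of the freCLIP tables let 12 of 38 rows be tested.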
